A study of Homo sapiens with 16 samples.

Results

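The gene response to doxycycline (DOX) outside the chromosome that carries the transgene was followed in cells of the 8p integration (called the 8p clone here) of HT1080, a human fibrosarcoma cell line with an activated NRAS allele. Members were all genes of the HiSeq expression table that lay on a chromosome other than 8, had a symbol listed once and averaged at least 5 FPKM over the 3 libraries of the clone. This gave 7598 genes out of 22892 with a symbol listed once, while 7852 genes passed the same level on all chromosomes. FPKM (fragments per kilobase of transcript and mapped fragments) is a level scaled for the length of the gene and the number of fragments in the library.

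The cells of the 8p clone carried a constitutive Tet repressor and 1 copy of the XIST cDNA behind a promoter that DOX switches on, placed in an intron of AGPAT5 in sense orientation. There was 1 library without DOX (No DOX) and there were 2 libraries after 5 days of DOX, called DOX 1 and DOX 2 here. The methods of the study speak of a pair of 8p clones with DOX, and the labels give no clone, so clone differences between the 3 libraries cannot be told apart from DOX. The HiSeq table also holds 3 libraries that were all treated with DOX, namely a 1p XIST clone, a 1p clone with the empty vector and a 12q XIST clone. A separate NextSeq table holds the 1p and the 12q XIST clones with 1 library each for No DOX and DOX. No condition without DOX was replicated, so no test was made and no p-values are given. DOX and XIST were added together in the 8p clone, so their parts in any difference cannot be told apart within it. In bulk RNA, fewer cells in a given state and less RNA per cell cannot be told apart either.

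XIST is the long non-coding RNA that coats the inactive X chromosome of female cells and recruits silencing factors in cis. The gene groups described here include cell cycle genes driven by E2F factors at the entry into S phase, genes of mitosis that carry a cell cycle element named CHR, targets of the ERK kinase pathway and targets of the stress factor ATF4. DOX is a tetracycline, and tetracyclines are known to inhibit protein synthesis on mitochondrial ribosomes.

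The upstream stretches below are examples from these groups, chosen because each holds the element searched for. Each stretch is the 120 bases before the transcription start, read 5′ to 3′ from RefSeq (GRCh38.p14, a different build from the hg18 of the expression tables). Capitals mark the motif named for the gene. For GINS2, a subunit of the replicative helicase (chr16:85688955-85689074, minus strand), PCNA, the sliding clamp of DNA polymerase (chr20:5126623-5126742, minus strand), MCM6, another helicase subunit (chr2:135876444-135876563, minus strand), and CDC25A, a phosphatase that activates cyclin-dependent kinases (chr3:48188418-48188537, minus strand), capitals mark an E2F motif. For CDCA8, a subunit of the chromosomal passenger complex of mitosis (chr1:37692396-37692515, plus strand), they mark a CHR motif. For HIST1H2BM, a histone of the large cluster on chromosome 6 that RefSeq names H2BC14 (chr6:27814902-27815021, plus strand), they mark the CCAAT box on either strand. For ASNS, the asparagine synthetase (chr7:97872409-97872528, minus strand), they mark the element of ATF4 targets.
GINS2: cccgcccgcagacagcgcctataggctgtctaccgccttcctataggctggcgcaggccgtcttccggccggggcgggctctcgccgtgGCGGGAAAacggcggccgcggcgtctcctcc
PCNA: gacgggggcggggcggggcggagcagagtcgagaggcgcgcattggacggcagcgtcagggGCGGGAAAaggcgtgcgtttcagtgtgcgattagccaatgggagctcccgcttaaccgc
MCM6: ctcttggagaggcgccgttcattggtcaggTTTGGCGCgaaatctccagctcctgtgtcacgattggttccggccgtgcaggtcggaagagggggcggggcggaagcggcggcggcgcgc
CDC25A: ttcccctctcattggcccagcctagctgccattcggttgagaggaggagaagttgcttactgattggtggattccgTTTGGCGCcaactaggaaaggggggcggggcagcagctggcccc
CDCA8: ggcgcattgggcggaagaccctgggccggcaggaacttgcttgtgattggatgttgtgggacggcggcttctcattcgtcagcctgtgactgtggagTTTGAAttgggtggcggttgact
HIST1H2BM: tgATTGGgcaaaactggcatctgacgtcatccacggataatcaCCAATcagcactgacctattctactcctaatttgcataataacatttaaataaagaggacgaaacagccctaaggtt
ASNS: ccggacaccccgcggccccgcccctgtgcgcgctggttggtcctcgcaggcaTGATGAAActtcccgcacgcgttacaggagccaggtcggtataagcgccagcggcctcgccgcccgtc

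The motifs were searched on both strands from 250 bases before to 50 bases after each RefSeq start, as TTTCCCGC or TTTGGCGC for E2F, TTTGAA for CHR, CCAAT for the CCAAT box and TGATGNAA for the ATF4 element. Of 37 DNA replication genes among the members, 34 had a promoter in the RefSeq table, and 16 of these, or 47.1 %, held an E2F motif. Among 6336 members with a promoter in the table the share was 5.27 %, and among all 27305 promoters outside chromosome 8 it was 2.75 %. Of the genes lowered with DOX (defined in the next paragraph), 46 of 316, or 14.6 %, held it. The lowered genes contain 33 of the DNA replication genes, so these shares rest partly on the same genes. Of the raised genes 3 of 143, or 2.10 %, held it. The CHR motif stood in 67.6 % of 34 mitosis genes, in 13.5 % of the members and in 18.2 % of all promoters. The CCAAT box stood in 12 of 14 histone genes, or 85.7 %, against 44.0 % of the members and 39.7 % of all promoters. The ATF4 element was found in 3 of 14 ATF4 target genes, in 2.56 % of the members and in 4.46 % of all promoters. A match describes the letters of the window and is no evidence of binding in these cells.

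XIST itself (hg18, chromosome X, 72957219 to 72989313) was at 3.38 FPKM with No DOX and at 99.0 and 89.7 FPKM in DOX 1 and DOX 2. The empty-vector library, which was also treated with DOX, had 0.0705 FPKM. Differences are given as log2(FPKM + 1) of a DOX library minus that of the No DOX library. A gene was called raised or lowered where both DOX libraries were at least 1.5-fold above or below No DOX on this scale. Both differences of a gene share the same No DOX value. The limit of 5 FPKM is on the mean, so a gene under it with No DOX could enter through its DOX libraries, and the reverse. Named genes under 5 FPKM in both DOX libraries include FAM111B, MCM10, CLSPN, E2F1, CDC25A, HIST1H2BL, ATF5 and MRPL1. Those under it with No DOX include XIST, FBLN2, ITGA10 and GABARAPL1. By this rule 394 members, or 5.19 %, were lowered and 193, or 2.54 %, were raised. When every library was recentred on its median member, 276 were lowered and 321 raised, so that the predominance of lowered genes was not kept. The median difference of all members was -0.06 for DOX 1 and -0.10 for DOX 2, and 54.2 % of members lay below No DOX in both libraries.

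The DOX libraries were close to each other. Among 7413 members that are not small RNA features, the median absolute difference between DOX 1 and DOX 2 was 0.07, against 0.22 between their mean and No DOX, and 4 of them differed by 1.5-fold or more between DOX 1 and DOX 2. Over all members this count was 89, or 1.17 %, of which 85 were features under 300 bp or small RNA genes. Of the longer members, 365 were lowered and 176 raised, and 46 and 19 of these passed 2-fold in both libraries. Lowered genes had a median level of 21.0 FPKM with No DOX and a median genomic span of 17.3 kb. Raised genes had 8.85 FPKM and 24.7 kb, and all longer members 16.0 FPKM and 26.7 kb. The calls were made against this same No DOX level, so it cannot show whether genes of high or low level were called. In the mean of the DOX libraries the order was the opposite. The medians there were 11.58 FPKM for lowered and 17.88 FPKM for raised genes. At the threshold, the last raised gene was TNFRSF25, with 0.5865 in the DOX library that differed less, and the first outside it was SEC23A, with 0.5847. On the lowered side these were C9orf40 with -0.5858 and GPD2 with -0.5845.

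**Figure D1:**
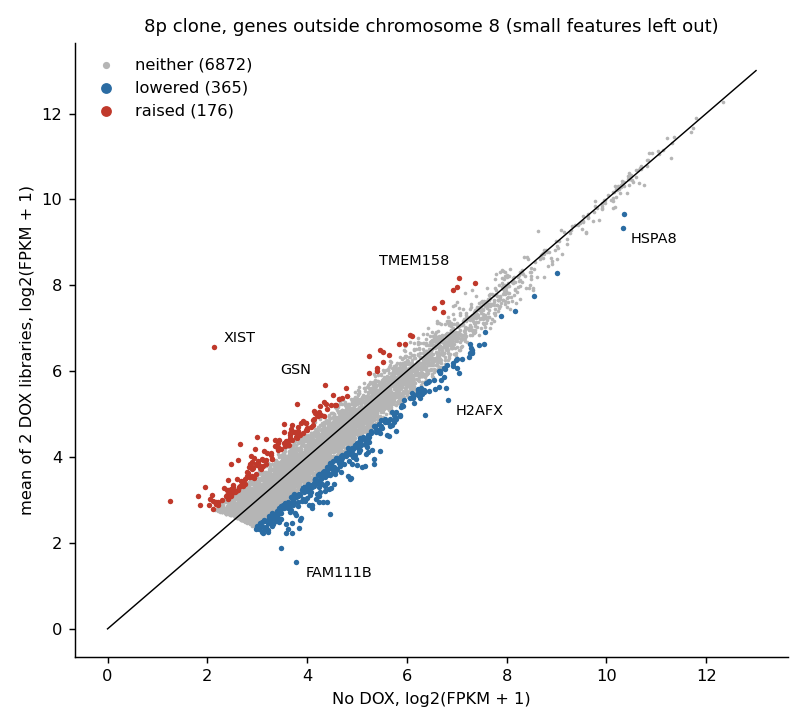
Level of each member in the No DOX library (x axis) and in the mean of the 2 DOX libraries (y axis), both as log2(FPKM + 1), for 7413 genes with small features left out; points on the line are equal. The 365 lowered genes (blue) include HSPA8 among those of high level, and XIST lies farthest above the line among the 176 raised genes (red).

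The largest group of lowered genes was that of DNA replication. Of its 37 members, 33, or 89.2 %, were lowered and 0 were raised, and all 37 lay below No DOX in both DOX libraries. The median level of the group was 28.6 FPKM with No DOX, 12.7 FPKM in DOX 1 and 13.9 FPKM in DOX 2. The median difference was -0.89 for DOX 1 and -0.95 for DOX 2, while the median absolute difference between the DOX libraries was 0.09 in this group. After recentring, 25 of the 37 were still past the threshold.

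MCM10, which starts the unwinding at replication origins, was at 13.4 FPKM with No DOX and at 4.27 and 3.95 FPKM with DOX. CHAF1A, the large subunit of the factor that places histones on new DNA, was at 20.1 FPKM and then at 6.76 and 6.72 FPKM. FEN1, the nuclease that trims Okazaki fragments, went from 81.8 to 31.3 and 29.4 FPKM. In each of these genes the DOX libraries lay far closer to each other than to No DOX, which the rule that called them largely fixes. GINS2, whose promoter is printed above, went from 34.7 to 12.3 and 13.3 FPKM. CDC6, which loads the helicase onto origins, went from 28.6 to 11.0 and 9.93 FPKM. CLSPN, the checkpoint adaptor claspin, went from 13.4 to 4.72 and 4.88 FPKM.

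Genes at other steps of replication in the list are given next, chosen after their values were seen. E2F1, the transcription factor of S phase entry, was at 11.3 FPKM with No DOX and at 4.15 and 3.91 FPKM with DOX. RRM2, a subunit of ribonucleotide reductase, was at 54.4 FPKM and then at 24.1 and 22.3 FPKM. PCNA was at 186 FPKM and then at 99.4 and 95.8 FPKM. MCM6 was at 31.9 FPKM and then at 17.2 and 16.8 FPKM. The 4 members that were not called were RRM1, RFC4, DBF4 and POLD1, with a mean difference between -0.62 for RRM1 and -0.22 for POLD1, the smallest of the group.

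**Figure D2:**
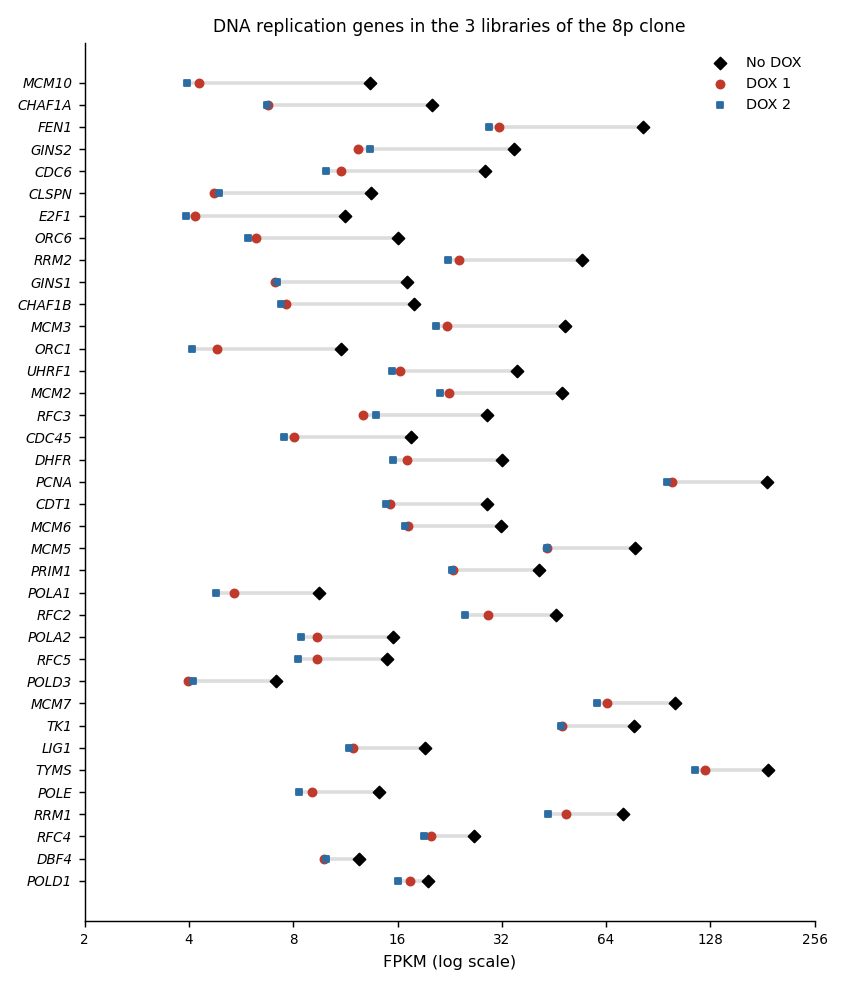
FPKM on a log axis (x) for the 37 DNA replication genes (y), ordered by their difference, with the No DOX library as black diamonds and DOX 1 and DOX 2 as red circles and blue squares. In all 37 genes both DOX values lie to the left of No DOX, from MCM10 with the largest mean difference to POLD1 with the smallest.

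The genes lowered most included some outside the fixed lists. FAM111B, a protease of replicating cells (hg18, chromosome 11, 58631233 to 58651464), had the largest difference of all longer lowered genes. It was at 12.7 FPKM in No DOX and at 2.22 and 1.68 FPKM with DOX, so it passed the limit on the mean only through No DOX. ZWINT, a kinetochore protein, was at 39.5 FPKM and then at 13.1 and 13.3 FPKM. H2AFX, the histone variant that marks DNA breaks, was at 112 FPKM and then at 39.2 and 39.7 FPKM. TCF19, a cell cycle gene, was at 18.9 FPKM and then at 6.66 and 6.79 FPKM. These 4 genes came from the 15 largest differences in each direction.

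Further lowered genes were picked after their values were seen. CDC25A was at 11.0 FPKM with No DOX and at 3.88 and 3.45 FPKM with DOX. DTL, which marks CDT1 for degradation, was at 13.8 FPKM and then at 4.98 and 5.06 FPKM. GMNN, the inhibitor of CDT1, was at 43.1 FPKM and then at 16.0 and 17.4 FPKM. ASF1B, a histone chaperone, was at 22.2 FPKM and then at 9.59 and 9.23 FPKM. SLBP, which binds the stem-loop of histone mRNAs, was at 43.0 FPKM and then at 23.2 and 21.8 FPKM. Both DOX values of each gene were below No DOX by more than the gap between them. The rule that called these genes largely fixes this, so it is no further support.

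Genes of mitosis lay lower with DOX by less. All 39 were below No DOX in both libraries, where 54.2 % of all members lay. The median was -0.41 in DOX 1 and -0.54 in DOX 2. Of the 39 genes 7, or 17.9 %, were lowered, against 5.19 % of all members, and 4 after recentring. KIF11, the motor that separates spindle poles, was at 22.8 FPKM with No DOX and at 12.2 and 11.7 FPKM with DOX. NDC80, which ties kinetochores to microtubules, was at 28.0 FPKM and then at 16.5 and 14.96 FPKM. ESPL1, the separase, went from 9.11 to 5.21 and 4.83 FPKM, CDCA8 from 26.8 to 15.7 and 15.9 FPKM, and BIRC5, its partner survivin, from 42.7 to 26.1 and 26.2 FPKM. Against the 3 other HiSeq libraries 2 mitosis genes were lowered, or 4 with all libraries centred, and the median was -0.02 or, centred, -0.22. Of 23 mitosis genes with a CHR motif, CDCA8 is the one printed above.

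Of 18 replication-dependent histone genes, 10, or 55.6 %, were lowered and 0 raised, with a median of -0.63 in DOX 1 and -0.72 in DOX 2. After recentring 8 were past the threshold. HIST1H2BM was at 21.1 FPKM with No DOX and at 4.81 and 6.02 FPKM with DOX. HIST1H2BL was at 10.1 FPKM and then at 3.17 and 2.21 FPKM, HIST1H4H at 28.1 FPKM and then at 9.81 and 10.7 FPKM, and HIST1H4A at 33.3 FPKM and then at 15.1 and 10.2 FPKM. HIST1H2BC was at 15.04 FPKM and then at 7.51 and 6.93 FPKM. These mRNAs end in a stem-loop without a poly(A) tail, the libraries were made from polyadenylated RNA, and the gene copies are alike in sequence, so their levels rest on the part that was captured and assigned. The median absolute difference between DOX 1 and DOX 2 was 0.18 in this group, against 0.07 over all longer members.

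The position of the No DOX library among the other HiSeq libraries bears on these groups. Each library was centred on its median member for this, because the 3 other libraries had lower FPKM in general, with median differences from No DOX of -0.32, -0.46 and -0.20. On that scale the DNA replication median relative to No DOX was -0.82 and -0.85 in the 8p DOX libraries, 0.05 in the 1p XIST library, -0.33 in the 1p vector library and -0.21 in the 12q XIST library. The No DOX library was thus about level with the 1p XIST library, which was treated with DOX, and above the other four. It was above all 5 DOX libraries for 13 of 37 DNA replication genes and 13 of 39 mitosis genes, where 1282 of all members, or 16.9 %, were in this position. Against the mean of the 3 other libraries, each library centred, 23 of the 37 DNA replication genes were lowered in DOX 1 and DOX 2. Without centring it was 12 of them. The histone median of the 1p XIST and vector libraries lay above No DOX, at 0.48 and 0.40. How far the state of the 1 No DOX culture enters these differences was not tested.

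**Figure D3:**
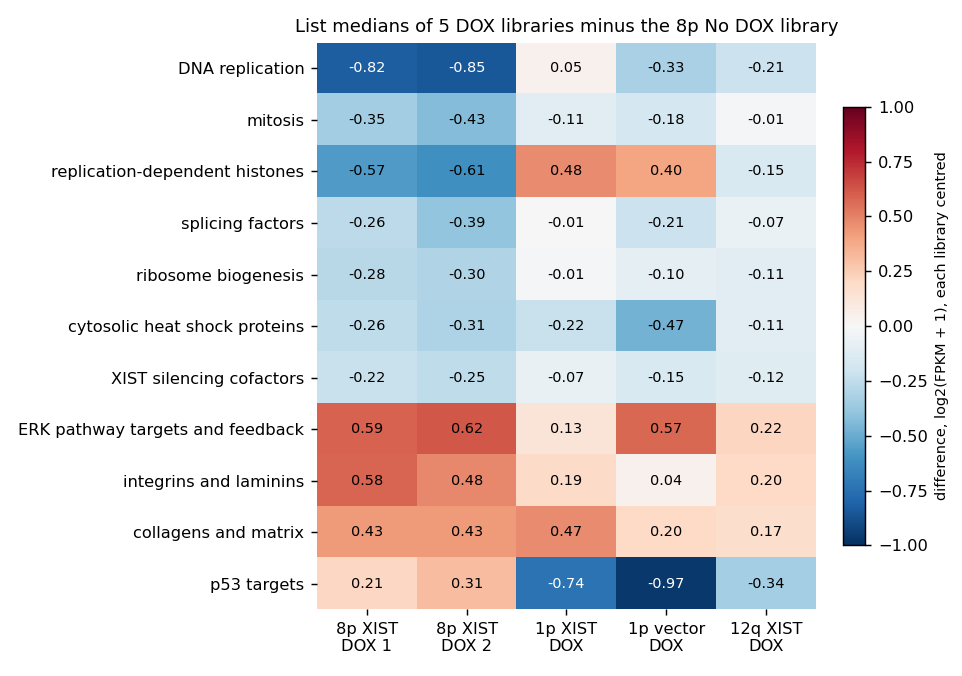
Median difference of 11 gene lists (rows) between each of the 5 DOX libraries of the HiSeq table (columns) and the 8p No DOX library, in log2(FPKM + 1) after each library was centred on its median member; blue is below No DOX and red above. The 8p DOX libraries have the lowest medians for DNA replication, at -0.82 and -0.85, and the p53 row separates them from the 3 other clones.

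DOX against No DOX in the other clones, in the NextSeq table, gave far fewer calls. With 1 library a side, 21 of 7922 genes (0.265 %) were raised and 29 (0.366 %) lowered in the 1p clone. In the 12q clone 39 of 8096 genes (0.482 %) were raised and 118 (1.46 %) lowered. These counts took in every chromosome, also the one that carries the transgene. The 8p counts left out chromosome 8 and needed both DOX libraries to pass, so the counts are not like for like. The median of the DNA replication genes was 0.01 in the 1p clone and -0.09 in the 12q clone, with 0 genes called in either direction. The median of the mitosis genes was 0.04 and 0.06, again with 0 calls. E2F1 differed by -0.14 and -0.10 and MCM10 by 0.01 and -0.23 in the 1p and 12q clones. The table was processed separately and its No DOX libraries are of other clones, so these values stand beside those of the 8p clone without a test of the difference.

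Genes for RNA processing made up the next lowered groups. Of 30 splicing factors, 10, or 33.3 %, were lowered, also after recentring, and 0 were raised, with medians of -0.32 and -0.50. SRSF6, a serine- and arginine-rich splicing regulator, was at 39.4 FPKM with No DOX and at 14.8 and 13.998 FPKM with DOX. SRSF2 was at 130.2 FPKM and then at 60.9 and 61.8 FPKM, SRSF3 at 93.3 FPKM and then at 46.7 and 47.4 FPKM, and SRSF1 at 52.6 FPKM and then at 28.7 and 26.7 FPKM. HNRNPM, an RNA-binding protein of the spliceosome, was at 153 FPKM and then at 88.6 and 81.4 FPKM. The other lowered members were SRSF7, SRSF10, TRA2A, TRA2B and HNRNPH1. SRSF4 and SRSF5, chosen after their values were seen, were not called, with mean differences of -0.06 and -0.20, and the highest value of the list was that of the kinase CLK1, at 0.63 and 0.39. In the NextSeq table the median of the list was -0.01 in the 1p and 0.01 in the 12q clone. Against the 3 other HiSeq libraries 1 splicing factor was lowered, or 3 with all libraries centred.

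Ribosome biogenesis genes had 6 of 26 members, or 23.1 %, lowered, against 5.19 % of all members, and 3 after recentring. Their medians were -0.34 and -0.41. NOP56, a core protein of box C/D small nucleolar particles, was at 109.6 FPKM with No DOX and at 46.3 and 49.3 FPKM with DOX. DKC1, the pseudouridine synthase of box H/ACA particles, was at 52.4 FPKM and then at 31.7 and 29.7 FPKM. NOP58, the partner of NOP56, went from 74.7 to 43.0 and 45.1 FPKM, NCL, nucleolin, from 512 to 332 and 295 FPKM, and UTP20 from 9.52 to 5.75 and 5.29 FPKM. Against the 3 other HiSeq libraries 0 of the 26 genes were lowered, or 1 with all libraries centred, and the median was -0.03 or, centred, -0.23. The 78 cytosolic ribosomal protein genes stood apart from these, with 0 called in either direction and medians of -0.02 and 0.03. RPLP1, the most abundant, was at 5183 FPKM with No DOX and at 5320 and 4569 FPKM with DOX.

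Chaperones of the cytosol were lower as a group. Of 17 cytosolic heat shock genes, 5, or 29.4 %, were lowered, against 5.19 % of all members, and 5 also after recentring. In both libraries 15 lay below No DOX, where 54.2 % of all members did. The medians were -0.32 and -0.41. HSPA8, the constitutive member of the HSP70 family, was at 1285 FPKM with No DOX and at 667 and 615 FPKM with DOX. HSPA1B, an inducible member that shares reads with the nearly identical HSPA1A, was at 12.7 FPKM and then at 5.40 and 5.07 FPKM. DNAJA1, a co-chaperone, was at 158 FPKM and then at 92.5 and 85.2 FPKM. The co-chaperone DNAJB1 went from 46.7 to 28.0 and 27.4 FPKM, and the exchange factor HSPH1 from 92.9 to 55.6 and 53.6 FPKM. The centred median was below No DOX in the other HiSeq libraries too, at -0.22 in 1p XIST, -0.47 in 1p vector and -0.11 in 12q XIST. Against their uncentred mean 0 of the 17 genes were lowered and the median was 0.12. With the libraries centred, 1 was lowered and the median was -0.08.

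The 8 subunits of the chaperonin CCT, which folds actin and tubulin, all lay below No DOX in both libraries with 0 called. Of them CCT7 was at 229 FPKM with No DOX and at 205 and 194 FPKM with DOX. The proteasome had 41 of 45 members below No DOX in both libraries, where 54.2 % of all members lay. Its medians were -0.19 and -0.21, and it had 1 lowered gene, the assembly chaperone PSMG1. Against the uncentred mean of the 3 other HiSeq libraries the medians of both lists had the opposite sign, at 0.21 for CCT and 0.19 for the proteasome, and with the libraries centred they were 0.02 and -0.01.

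Because XIST was induced, the genes of its silencing cofactors were looked at in full. Of 24 members, 2, or 8.33 %, were lowered, against 5.19 % of all members, and 0 were raised. In both libraries 23 lay below No DOX, where 54.2 % of all members did. The medians were -0.29 and -0.36. EZH2, the methyltransferase of the PRC2 complex, was at 28.7 FPKM with No DOX and at 16.5 and 15.8 FPKM with DOX. SAFB, a scaffold attachment factor, was at 47.5 FPKM and then at 27.6 and 26.6 FPKM. SUZ12, another PRC2 subunit, differed by -0.58 and -0.59, just short of the threshold in DOX 1. HNRNPU, which anchors XIST to chromatin, differed by -0.49 and -0.65, and DNMT1 and SMCHD1, which act late in X inactivation, both by -0.49 and -0.59.

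SPEN, the repressor that binds the A repeat of XIST, was at 11.1 FPKM with No DOX and at 9.67 and 9.06 FPKM with DOX. HDAC3, the deacetylase it works through, was at 24.3 FPKM and then at 20.3 and 19.4 FPKM, and LBR, the lamin B receptor, at 37.1 FPKM and then at 29.6 and 29.7 FPKM. RBM15, an adaptor of RNA methylation, was the member above No DOX in both, with 5.83 FPKM and then 6.43 and 5.94 FPKM. Against the uncentred mean of the 3 other HiSeq libraries the median of the list was 0.04, the opposite sign, and -0.16 with the libraries centred. In the NextSeq table it was 0.03 in the 1p and 0.02 in the 12q clone. The 17 histone acetylation enzymes and readers had 0 calls, with the lowest value that of CREBBP, an acetyltransferase, at -0.51 and -0.55.

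Among the raised groups, targets and feedback inhibitors of the ERK pathway had the largest share of calls. Of 17 members, 7, or 41.2 %, were raised and 0 lowered, and 9 were raised after recentring. The medians were 0.53 and 0.51, and that of the mean difference was 0.52, but it was 0.06 over the 13 genes with a mean of at least 10 FPKM, of which 6 were raised. DUSP5, a phosphatase of nuclear ERK, was at 42.9 FPKM with No DOX and at 92.3 and 85.3 FPKM with DOX. SPRY2 and SPRY4 are inhibitors of receptor signalling to RAS. SPRY2 was at 21.9 FPKM and then at 43.9 and 41.4 FPKM, and SPRY4 at 6.40 FPKM and then at 15.01 and 12.7 FPKM. PHLDA1 was at 104 FPKM and then at 203 and 187 FPKM, and ETV4, an ETS transcription factor, at 5.96 FPKM and then at 11.1 and 10.6 FPKM. The other raised members were DUSP1 and MCL1.

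The list was not uniform. FOSL1, CCND1, JUN and EPHA2, other abundant members chosen after their values were seen, differed by 0.01 and -0.06, -0.16 and -0.20, 0.12 and 0.01, and -0.08 and -0.14. The No DOX library lay below all 5 DOX libraries for 5 of the 17 genes, where 14.5 % of all members were in this position. The centred medians of the other libraries were 0.13 for 1p XIST, 0.57 for 1p vector and 0.22 for 12q XIST. Against the mean of these 3 libraries, 3 of the genes were raised in the 8p DOX libraries, and the median was -0.13 with the libraries centred. In the NextSeq table the list had medians of -0.09 and -0.01 with 0 calls.

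**Figure D4:**
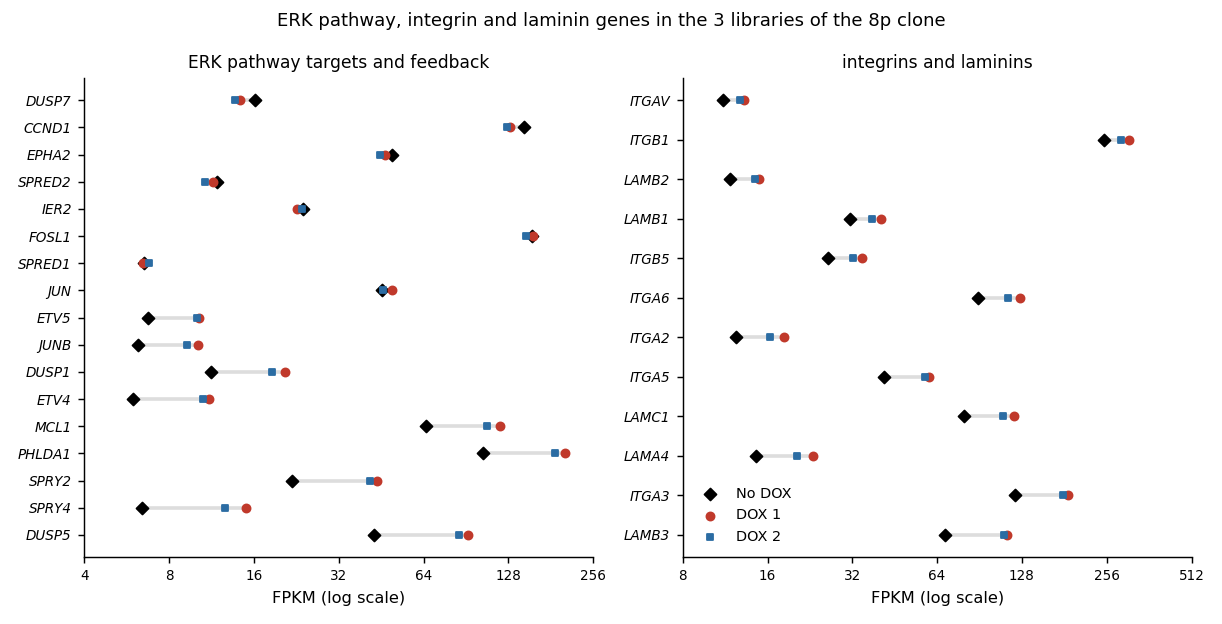
FPKM on a log axis (x) for 17 ERK pathway genes (left) and 12 of the 13 integrin and laminin genes (right), with No DOX as black diamonds and DOX 1 and DOX 2 as red circles and blue squares. The 7 raised ERK genes lie to the right of No DOX while DUSP7 and CCND1 lie to its left, and the 12 integrin and laminin genes lie to the right in both DOX libraries.

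Genes for the attachment of the cell to its matrix lay mostly above No DOX, with few past the threshold. All 13 integrin and laminin genes lay above No DOX in both libraries, where 34.1 % of all members did, with medians of 0.52 and 0.38. LAMB3, a laminin chain, was raised, at 68.2 FPKM with No DOX and at 114 and 110.2 FPKM with DOX. The centred integrin and laminin medians were 0.58 and 0.48 in the 8p DOX libraries and 0.19, 0.04 and 0.20 in 1p XIST, 1p vector and 12q XIST. Of 17 collagen and matrix genes, 2, or 11.8 %, were raised, against 2.54 % of all members, and 14 were above No DOX in both libraries, with medians of 0.36 and 0.32. THBS1, FBN1 and COL12A1, the 3 others, lay below it in both. TNC, tenascin C, was at 6.24 FPKM and then at 13.4 and 13.3 FPKM, and FN1, fibronectin, at 49.3 FPKM and then at 87.2 and 76.7 FPKM. No DOX was below all 5 DOX libraries for 7 of the 17 matrix genes, against 14.5 % of all members. The centred matrix medians were 0.43 in both 8p DOX libraries, 0.47 in 1p XIST, 0.20 in 1p vector and 0.17 in 12q XIST, and against the 3 other libraries, centred, the median was 0.22.

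Of 12 metalloproteinase and plasminogen system genes, 10 were above No DOX in both libraries, where 34.1 % of all members were. MMP14, a membrane-bound collagenase, was at 121 FPKM with No DOX and at 254 and 218 FPKM with DOX. MMP2, the gelatinase that MMP14 activates, was at 8.12 FPKM and then at 16.6 and 15.6 FPKM. Both genes were raised, among 3 of the 12, or 25.0 %, against 2.54 % of all members. For 6 of the 12 genes No DOX was below all 5 DOX libraries, against 14.5 % of all members. The centred medians were 0.37 and 0.32 in the 8p DOX libraries, 0.41 in 1p XIST, 0.19 in 1p vector and 0.14 in 12q XIST, and against the 3 other libraries, centred, the median was 0.09, where it was 0.26 against No DOX. In the NextSeq table MMP14 differed by -0.12 in both clones and MMP2 by 0.34 and -0.24.

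Single genes with the largest rises came from several classes. Levels of the other HiSeq libraries given for single genes are uncentred FPKM, and those libraries had lower FPKM in general. GSN, gelsolin, which severs actin filaments, was at 19.6 FPKM with No DOX and at 49.9 and 50.6 FPKM with DOX, where the 3 other HiSeq libraries had between 16.3 and 24.5 FPKM. WIPI1, an autophagy protein, was at 6.97 FPKM and then at 22.1 and 20.0 FPKM. FBLN2, fibulin 2, was at 2.54 FPKM and then at 7.49 and 7.65 FPKM, so it passed the limit on the mean only through its DOX libraries. KRT15, a keratin, was at 8.01 FPKM and then at 20.5 and 20.2 FPKM, while the other HiSeq clones had 0.726 to 2.87 FPKM. ITGA10, an integrin chain that was not in the list, was at 4.59 FPKM and then at 13.9 and 12.9 FPKM.

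HSD11B1, which activates cortisol, was at 36.9 FPKM with No DOX and at 83.2 and 78.6 FPKM with DOX, within the 69.9 to 107 FPKM of the other HiSeq libraries. TMEM158, a gene induced by RAS signalling, was at 131 FPKM and then at 298 and 275 FPKM, where the other libraries had 174 to 335 FPKM. OSCAR, an immune receptor gene, was at 5.33 FPKM and then at 17.7 and 20.1 FPKM. For HSD11B1 and TMEM158 it was the No DOX library that lay outside the range of the 5 others, in uncentred FPKM.

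The targets of ATF4 were called in both directions, the lowered ones at a share near that of all members. Of 14 members, 3, or 21.4 %, were raised, against 2.54 % of all members. The 1 lowered gene made 7.14 %, against 5.19 % of all members. ASNS was at 12.9 FPKM with No DOX and at 31.2 and 42.0 FPKM with DOX. DDIT3, the factor CHOP, was at 6.36 FPKM and then at 14.5 and 16.0 FPKM, and GDF15, a secreted stress cytokine, at 127 FPKM and then at 251 and 247 FPKM. ATF5, a factor of the same family as ATF4, was at 12.0 FPKM and then at 3.64 and 3.79 FPKM. ATF4 itself was at 199.6 FPKM and then at 189 FPKM in both DOX libraries, and TRIB3, which ATF4 and CHOP induce, at 20.4 FPKM and then at 18.3 and 22.1 FPKM. DDIT4 missed the threshold in DOX 1, at 0.56, and passed it in DOX 2, at 0.64. Of 16 genes for amino acid synthesis and transport 1 was raised, PHGDH, the first enzyme of serine synthesis, from 19.4 to 33.6 and 42.1 FPKM. In the NextSeq table ASNS differed by -0.25 in the 1p and 0.59 in the 12q clone, and DDIT3 by -0.17 and 0.69.

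Lipid and sugar metabolism had few calls. Of 21 cholesterol genes, 17 lay above No DOX in both libraries, where 34.1 % of all members did. No DOX was below all 5 DOX libraries for 3 of the 21, against 14.5 % of all members. Of the 21 genes 2, or 9.52 %, were raised, against 2.54 % of all members. INSIG1, which retains the SREBP factors in the endoplasmic reticulum, went from 45.0 to 74.4 and 72.1 FPKM. MSMO1, a sterol oxidase, went from 61.1 to 98.5 and 98.1 FPKM. Of 13 fatty acid genes, ACSS2, an acetyl-CoA synthetase, was raised from 6.80 to 17.2 and 17.3 FPKM. Of 19 glycolysis genes, 2, or 10.5 %, were raised, against 2.54 % of all members. ALDOC, an aldolase of low level here, went from 10.6 to 26.3 and 25.9 FPKM. SLC2A3, a glucose transporter, went from 5.13 to 14.99 and 13.5 FPKM. The median of the glycolysis list was -0.03 and -0.06. Of 10 hypoxia genes 0 were called.

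Genes of p53, interferon and antigen presentation had 1 call in all. Of 17 p53 targets 10 were above No DOX in both libraries, where 34.1 % of all members were. MDM2, the ubiquitin ligase of p53, went from 73.3 to 103 and 99.9 FPKM, a difference of 0.49 and 0.44. CDKN1A, the inhibitor p21 of cyclin-dependent kinases, went from 101 to 136 and 134 FPKM, a difference of 0.42 and 0.40. Both genes were chosen after their values were seen and neither passed the threshold. The centred p53 medians were 0.21 and 0.31 in the 8p DOX libraries and -0.74, -0.97 and -0.34 in 1p XIST, 1p vector and 12q XIST, so that the libraries of the 8p clone lay together. Of 10 interferon response genes 0 were called. Of 13 antigen presentation genes HLA-B was raised, from 6.18 to 9.89 and 11.5 FPKM, and 1 gene, HLA-C, passed in DOX 2 only, at 0.62. Of these 13 genes 8 lay above and 5 below No DOX in both libraries, against 34.1 % and 54.2 % of all members. No DOX was below all 5 DOX libraries for 7 of them, against 14.5 % of all members. The centred antigen presentation medians were 0.38 and 0.40 in the 8p DOX libraries and 0.70, 0.71 and 0.36 in 1p XIST, 1p vector and 12q XIST. Against the mean of these 3 libraries the median had the opposite sign, at -0.08, or -0.28 centred.

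Nuclear genes for mitochondria, where tetracyclines are known to act, were described separately. Of 73 mitochondrial ribosomal protein genes, 60 lay below No DOX in both libraries, where 54.2 % of all members did, with medians of -0.26 and -0.23. Of them 1, or 1.37 %, was lowered, against 5.19 % of all members. It was MRPL1, from 7.68 to 3.64 and 3.79 FPKM, so it passed the limit on the mean only through No DOX. The medians were 0.01 in the 1p and -0.01 in the 12q clone of the NextSeq table, and against the 3 other HiSeq libraries the median was 0.17, the opposite sign, or -0.03 centred. Respiratory complex I, with 36 genes, had medians of -0.09 and -0.05, complexes II to IV, with 24 genes, -0.04 and 0.03, and the ATP synthase, with 16 genes, -0.16 and -0.18, with 0 calls in all of them. The 15 mitochondrial chaperones and proteases also had 0 calls, and HSPD1, the chaperonin HSP60, was at 335 FPKM with No DOX and at 251 and 237 FPKM with DOX. Of 17 factors of mitochondrial DNA and translation, TFAM, which packages mitochondrial DNA, was lowered from 36.4 to 21.8 FPKM in both DOX libraries, and TFB1M, an rRNA methyltransferase, was raised from 7.07 to 13.6 and 13.4 FPKM. Genes encoded by mitochondrial DNA were not among the members.

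Of the remaining lists, the one of NRF2 targets and iron storage had 1 lowered gene, TFRC, the transferrin receptor, from 98.5 to 50.7 and 47.2 FPKM. In the endoplasmic reticulum list XBP1, a factor of the unfolded protein response, was raised from 20.2 to 33.0 and 34.6 FPKM. The lysosome list had NPC1, a cholesterol transporter, raised, the cytoskeleton list had TAGLN lowered, and of 76 zinc finger genes ZNF326 and ZNF207 were lowered. The lists of cytosolic tRNA synthetases, the tricarboxylic acid cycle, YAP targets, NF-kB targets and metallothioneins had 0 calls.

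**Figure D5:**
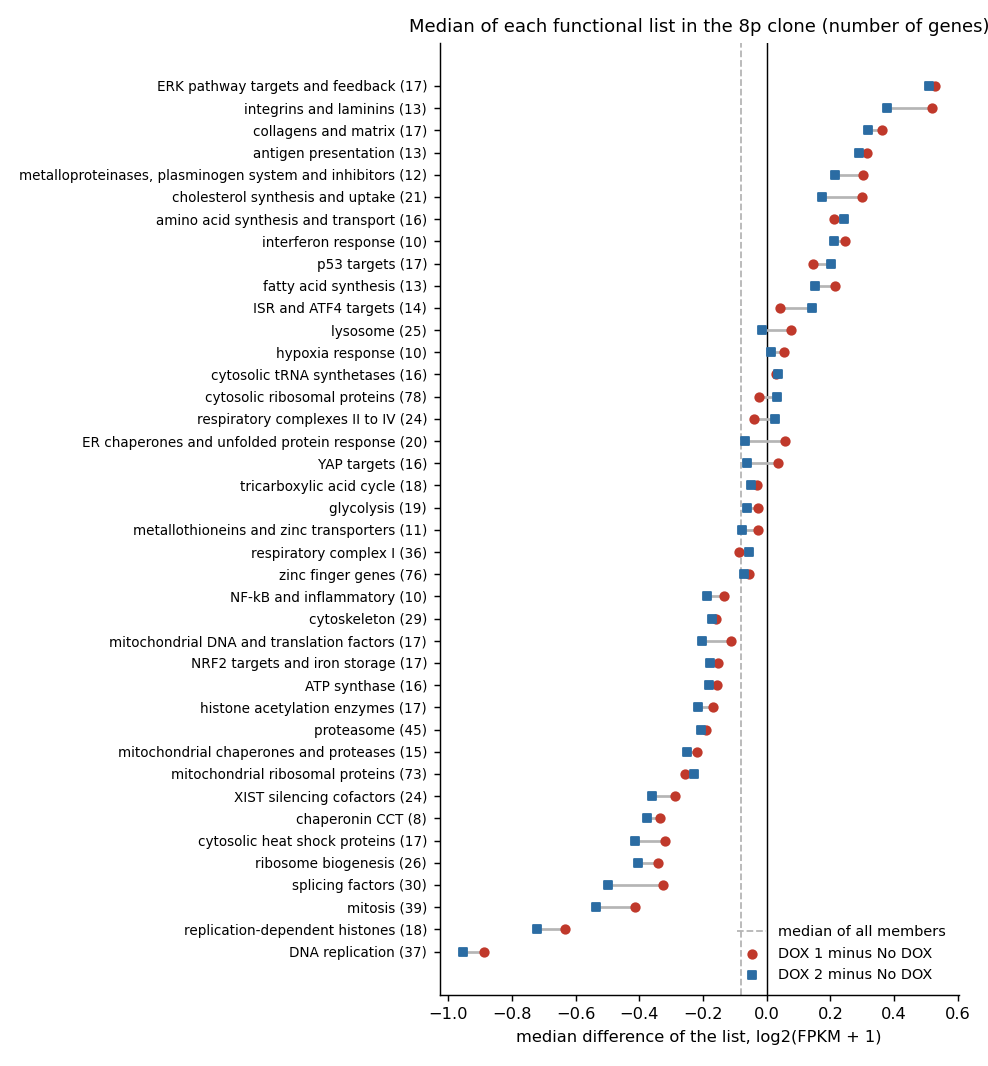
Median difference from No DOX in log2(FPKM + 1) (x axis) for each functional list with 8 or more members (y axis, number of genes in brackets), with DOX 1 as red circles and DOX 2 as blue squares; the dashed line is the median of all members. DNA replication lies lowest, at -0.89 and -0.95, and ERK pathway targets highest, at 0.53 and 0.51 (0.06 for the mean difference of the 13 genes of at least 10 FPKM).

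Small RNA features gave unstable values. Of 185 such members 17 were raised and 29 lowered, but 85 differed by 1.5-fold or more between DOX 1 and DOX 2, and their median absolute difference was 0.52. No gene of this class is named for that reason. By chromosome, the share of lowered members ran from 1.92 % on chromosome 14 to 8.63 % on chromosome 22, and the share of raised members from 0.725 % on chromosome 13 to 3.85 % on chromosome 11. The 3 libraries had 11165, 11229 and 11240 genes at 1 FPKM or more. Epithelial and blood cell markers were under 1 FPKM in all 7 genes of each list. Of 8 fibroblast and sarcoma markers VIM, CD44, S100A4, LGALS1 and CAV1 were present and COL1A2, COL5A2 and THY1 were under 1 FPKM. Of the 46 lists, 43 had members, and 110 of the lowered and 44 of the raised members belonged to at least 1 of them, leaving 284 and 149 in none.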

How the data were processed

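RNA-seq libraries of HT1080 clones were used, with 3 libraries of the 8p clone as the basis and 7 others beside them. The authors prepared strand-specific libraries from polyadenylated RNA, mapped the reads with TopHat (genome build hg18), and the values they deposited are FPKM estimated by Cufflinks. The tool versions, the annotation and the use of strand in counting are not given in the sources used here. The FPKM values give no read counts, so depth is unknown and no interval based on depth is given. From the deposited FPKM, log2 values with a pseudocount of 1 were computed, which understates the change of low genes. Symbols listed more than once (739 lines) or changed into dates (26) were left out. The HiSeq and NextSeq tables were used separately.

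Genes were placed in 46 lists by symbol (706 entries) or RefSeq synonym (28), with 6 unmatched. The members and the lists were chosen with earlier results of these data known. Named genes are XIST, the 15 largest differences in each direction by the smaller replicate difference without small features, and in each list up to 5 raised and 5 lowered genes, or up to 3 of the highest mean FPKM where none was called. The stress response and XIST cofactor lists were given more fully, and genes outside the rule are marked as chosen after their values were seen or named as the remaining or extreme members of a list. Some genes the rule names are not reported here. Python 3.11.15, numpy 2.4.6, pandas 2.3.3 and matplotlib 3.10.9 were used. The ChIP-seq data were not analysed here.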

Additional observations from a re-analysis of the deposited data

Results flagged for a closer look

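For 8 lists the median difference with DOX had one sign in DOX 1 and DOX 2 of the 8p clone and the other sign in the 1p and 12q clones of the NextSeq table. This contrast was not tested, since the tables were sequenced and normalised separately. Of these, 4 lists with larger medians have been described. The ERK pathway median was 0.5218 in the 8p clone (0.0611 for genes of at least 10 FPKM) and -0.09 and -0.01 in the 1p and 12q clones. The mitosis median was -0.4787, against 0.04 and 0.06. The collagen and matrix median was 0.3397, against -0.02 and -0.13, and the XIST cofactor median was -0.3363, against 0.03 and 0.02.

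The other medians were smaller. That of metalloproteinases, the plasminogen system and their inhibitors was 0.258, against -0.08 and -0.01. That of the ATP synthase was -0.1791, against 0.02 and 0.05, and that of mitochondrial DNA and translation factors was -0.1535, against 0.01 and 0.03. The median of metallothioneins and zinc transporters was -0.0618, which is closer to 0 than the median of all members, at -0.0806.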

How the results depend on the processing

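With 1 No DOX library the baseline is the main limit, and a threshold of 2-fold or a recentring of the libraries also moved counts. At 2-fold in both DOX libraries 59 genes were lowered and 29 raised, with 17 DNA replication, 2 splicing factor and 0 ERK pathway genes. Against the 3 other HiSeq libraries 162 genes were lowered and 1093 raised, with a median of all members of 0.2296, 12 DNA replication genes and 1 splicing factor gene lowered, 3 ERK pathway genes raised and a heat shock median of 0.1175, the opposite sign. With all libraries recentred as well, an alternative added after the data were seen, 344 genes were lowered and 557 raised. The median of all members was then 0.0303 and the heat shock median -0.0818. In this setting 23 DNA replication and 3 splicing factor genes were lowered and 3 ERK pathway genes raised. The ERK pathway median was -0.134, the opposite sign. These values cannot be told apart from differences between the clones.

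Recentring alone gave 321 raised genes and a median of all members of 0.0054. A minimum mean of 1 FPKM gave 324 raised genes. With either DOX library left out, between 239 and 315 genes were raised. Of the 9 lists with at least 20 % of members called, 77 of 80 alternative medians kept their sign. The heat shock and ERK lists were exceptions, each in an alternative with the other HiSeq libraries as baseline. The median of small RNAs was the remaining exception, at 0 without DOX 2. Most of the alternatives reused the same No DOX library, and the lists were picked by calls made against it. The share that kept its sign is therefore no test of the baseline. The ERK median was 0.0611 at a minimum mean of 10 FPKM. The counts within lists were computed under these alternatives after the data were seen. No paired analysis was possible because No DOX had 1 library.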

Other observations

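All genes here were picked after their values were seen, with no count of their class. Raised genes that belong to no list included the following of the secretory pathway. KDELR3, which returns chaperones to the endoplasmic reticulum, was at 11.9 FPKM with No DOX and at 26.4 and 25.0 FPKM with DOX. SEC24D and SEC24A, cargo adaptors of the COPII coat, were at 9.29 and 13.2 FPKM with No DOX. SEC24D then had 21.7 and 18.6 FPKM, and SEC24A had 24.9 and 21.4 FPKM. GOLGA2, a Golgi matrix protein, was at 14.7 FPKM and then at 27.8 and 25.3 FPKM. SEC23A, their partner in the coat, was the first gene short of the threshold, with 16.8 FPKM and then 28.9 and 25.8 FPKM. In the 12q clone of the NextSeq table KDELR3 differed by 0.32, SEC24D by 0.32 and SEC24A by 0.32, and in the 1p clone by 0.09, -0.05 and 0.06.

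GABARAPL1, which decorates autophagosomes, was raised, at 4.31 FPKM with No DOX and at 11.1 and 8.92 FPKM with DOX, and NBR1, a cargo receptor, at 24.1 FPKM and then at 42.4 and 37.6 FPKM. ODC1, which makes putrescine, was lowered from 151 to 78.8 and 81.4 FPKM, while SAT1, which acetylates polyamines for export, was raised from 6.70 to 15.3 and 14.5 FPKM. SAT1 had 29.7 FPKM in the 12q XIST library, 17.4 FPKM in the 1p vector library and 7.75 FPKM in the 1p XIST library.

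The nuclear long non-coding RNAs NEAT1 and MALAT1 were both raised. NEAT1 was at 44.7 FPKM with No DOX and at 94.0 and 79.6 FPKM with DOX, below the 122 to 145 FPKM of the 3 other HiSeq libraries. MALAT1 was at 164 FPKM and then at 266 and 260.0 FPKM, within the 189 to 286 FPKM of those libraries. For both genes the No DOX library was the lowest of the 6, in uncentred FPKM. Among genes for RNA-binding proteins outside the splicing list, SFPQ was lowered from 158 to 86.0 and 83.6 FPKM and TARDBP from 35.6 to 19.0 and 17.0 FPKM.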
